A study of Mus musculus with 9 samples.

Results

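The peroxisome proliferator-activated receptors (PPARs), their retinoid X receptor (RXR) partners and the coregulators they recruit were followed through 9 genes of the mouse liver transcriptome. The genes were named by symbol, as the receptors Ppara, Ppard and Pparg, the partners Rxra and Rxrb, the coactivators Ppargc1a, Ppargc1b and Med1, and the corepressor Ncor1. A gene was kept if its value was above 0 in at least 1 liver, and all 9 were kept. They are 9 of 23183 gene symbols in the tables and of 16889 symbols above 0 in at least 1 liver.

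Liver RNA was taken from 9 male C57BL/6J mice, an inbred strain, at postnatal day 100, and 1 poly(A)-selected library was made per mouse. The paper states that the mice had fasted before blood was taken and lists the liver among the tissues collected. The ND group (mice 6, 7 and 9) was fed a normal diet with 14% fat, and the HFD group (mice 1, 2 and 3) a high-fat diet with 60% fat, each for 10 weeks. The PRF 50 group (mice 3, 9 and 10) was fed the same HFD for 10 weeks and received 50 mg/kg of PRF orally each day over the last 5 weeks. PRF is a fraction of Jinkyool citrus leaves that is rich in polymethoxyflavones, a class of flavonoids. The comparisons asked how the HFD and PRF related to transcript levels in whole liver tissue of 1 sex and 1 strain. PRF on the ND was not analysed here.

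PPARs are nuclear receptors that bind fatty acids and their derivatives and sit on DNA as heterodimers with an RXR, the receptor of 9-cis retinoic acid. In the liver, PPARalpha is the main receptor of the fasting response and turns on fatty-acid oxidation and ketone synthesis, while PPARgamma, the master regulator of adipocytes, is low in normal hepatocytes and is linked to lipid droplet genes in fatty liver. Ligand binding replaces corepressors such as NCoR1 with coactivators such as the PGC-1 proteins and the Mediator complex.

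The deposited values were read as log2(FPKM + 1), where FPKM is the abundance of fragments scaled to transcript length and library size, so that levels of different genes can be compared per length. Read counts were not used here, and the absolute depth of each library is unknown. The most common ratio between low values of the same gene in 2 livers gives the relative depth. Taking HFD mouse 1 as 1, this ratio ran from 1.06 to 1.15 in the ND group, was 1.16 and 1.6 in the other HFD mice, and ran from 0.966 to 1.52 in the PRF 50 group. The groups thus overlapped in depth, and each library had between 14372 and 14980 genes above 0. In HFD mouse 2, the small nuclear RNA gene Rnu6 reached 22.44 on the log2 scale, the highest value of the tables. Of 7 hepatocyte markers, 6 were above 0 in all 9 livers, with a summed FPKM of 19700 ± 4850 in the ND, 19600 ± 3320 in the HFD and 19400 ± 368 in the PRF 50 group (SD, n = 3), and Apoa1 was the most abundant. None of the 6 was called in any comparison, but at an unadjusted p under 0.05 Cps1 (-0.61) and Hnf4a (-0.32) were below ND in the HFD group and Ttr (-0.62) was below HFD in PRF 50. Albumin (Alb), which hepatocytes secrete in bulk, was listed at 0 in every liver, so a listed 0 does not show that a gene was silent.

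Pparg was the only member called, and the call held in 6 of 10 alternatives against HFD and in 4 of 10 against ND. As a ratio of FPKM + 1, the scale of every fold given here, it was 2.38-fold lower in the PRF 50 than in the HFD livers and 2.17-fold lower than in the ND livers, which understates the ratio of FPKM. Its values did not overlap with those of either group. Ppara was highest in the HFD livers, 1.50-fold above ND and 1.43-fold above PRF 50, without overlap, but with adjusted p-values above 0.05 on all mice of each comparison. None of the RXR genes, the coactivators or Ncor1 passed the test in any comparison.

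Between PRF 50 and HFD, limma gave an adjusted p under 0.05 for 1 of the 9 members (Pparg, lower), beside 3.59% of all 10084 tested genes (2.16% lower and 1.43% higher). The count was 0 without HFD mouse 2 or 3 or PRF 50 mouse 3, and 2 without PRF 50 mouse 9, where Ppara was also called. An unadjusted p under 0.05 was reached by 2 members, Ppara and Pparg, beside 20.2% of all tested genes. The 3 PRF 50 values were clear of the 3 HFD values in 3 members, Ppara, Pparg and Rxra, beside 26.2% of the tested genes. In HFD vs. ND, limma called 0 of the 9 members, beside 1.33% of 9978 tested genes (0.702% higher in HFD). An unadjusted p under 0.05 was found for 1 member, Ppara, beside 15.1% of all, and the values did not overlap in 5 members (Ppara, Ppard, Rxrb, Ppargc1a and Ncor1), beside 20.7% of all. Between PRF 50 and ND, 1 member (Pparg, lower) was called, beside 0.458% of 10051 tested genes (0.298% lower), and 0 without ND mouse 6, 7 or 9 or PRF 50 mouse 3 or 9. An unadjusted p under 0.05 was reached by 2 members (Ppard and Pparg), beside 12.5% of all, and 5 members (Ppard, Pparg, Rxra, Rxrb and Ppargc1b) did not overlap, beside 19.9% of all.

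The median absolute log2 fold change of the 9 members was 0.12 in PRF 50 vs. HFD, 0.23 in HFD vs. ND and 0.17 in PRF 50 vs. ND, beside 0.14 over all tested genes in each comparison. With their signs, the members' medians were -0.09, 0.13 and 0.07, beside -0.02, -0.01 and -0.03 over all tested genes. Any pair of these comparisons shares the mice of 1 group, so the values are given side by side. In whole tissue, fewer cells that express a gene and less of its RNA per cell cannot be told apart.

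**Figure D1:**
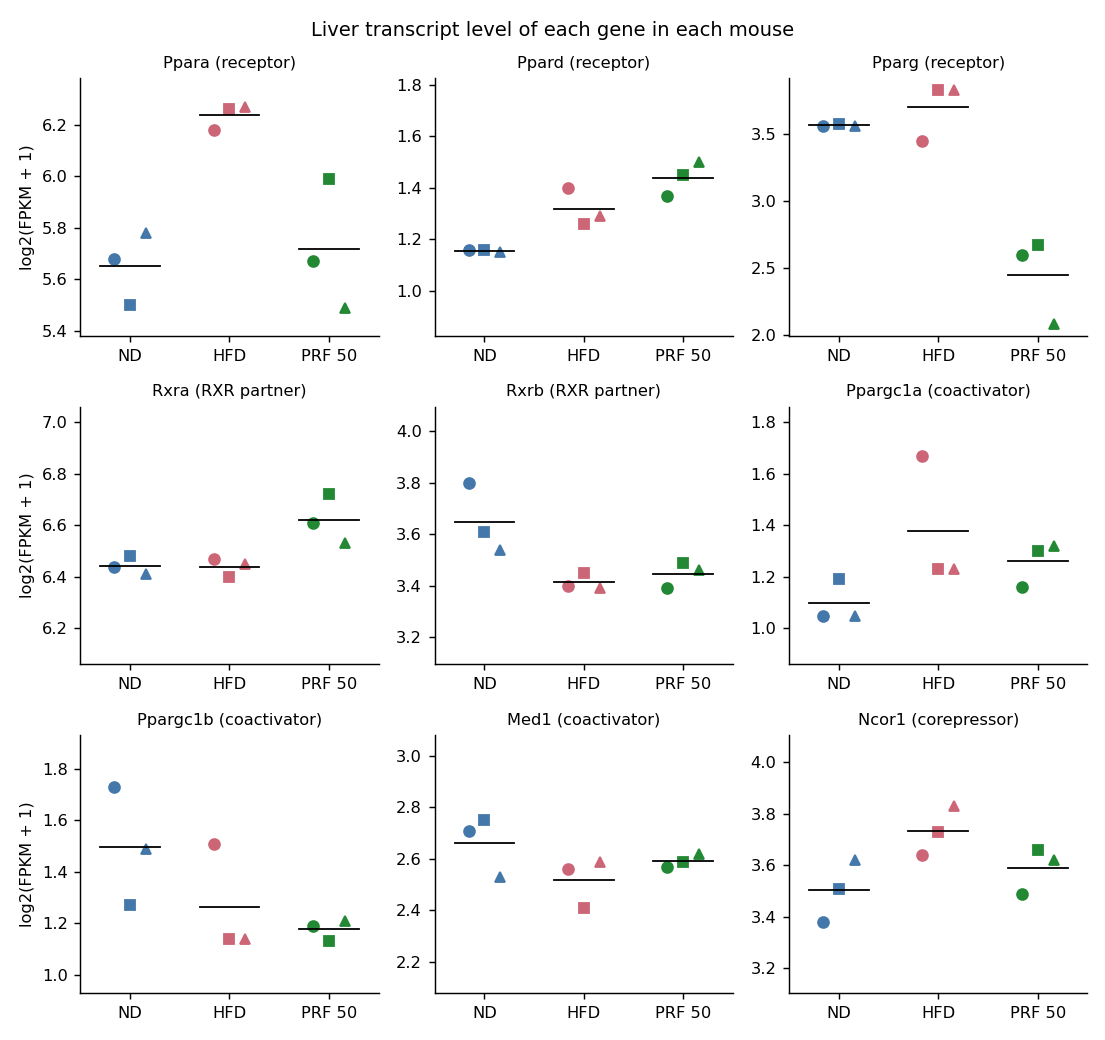
Level of each of the 9 genes in every liver, as log2(FPKM + 1), by group (n = 3 mice each), with circle, square and triangle for the mice in the order of their numbers and a black line for the group mean. Each panel has its own vertical range of at least 1 log2 unit. Pparg lies between 2.08 and 2.67 in PRF 50 and between 3.45 and 3.83 in the other groups, and Ppara lies between 6.18 and 6.27 in HFD and at 5.99 or below elsewhere.

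In the ND livers, the order of the levels per length ran from Rxra, with a mean FPKM of 86.1 ± 2.22 (SD, n = 3), and Ppara, with 49.5 ± 4.92, down to Ppard, with 1.23 ± 0.00609, and Ppargc1a, with 1.14 ± 0.123. Rxrb (11.6 FPKM), Pparg (10.9 FPKM) and Ncor1 (10.4 FPKM) stood between them with overlapping ranges, followed by Med1 (5.35 FPKM) and Ppargc1b (1.84 FPKM). The ranges of Ppard and Ppargc1a also overlapped. In the HFD livers, Rxra (85.9 FPKM) and Ppara (74.5 FPKM) again led, and the range of Pparg (12.1 FPKM) overlapped with those of Ncor1 (12.3 FPKM) and Rxrb (9.64 FPKM), which were clear of each other. The lowest genes of that group, Ppargc1a, Ppard and Ppargc1b, at 1.63, 1.49 and 1.42 FPKM, could not be ordered beyond the spread. In the PRF 50 livers, Pparg was at rank 6 of 9, beside rank 4 in the ND and in the HFD livers. Its range there was clear of that of Rxrb, and its mean of 4.55 FPKM overlapped in range with Med1 at 5.03 FPKM.

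Ppara (chr15:85734983-85802819 on GRCm38, plus strand) encodes PPARalpha, the receptor that controls peroxisomal and mitochondrial fatty-acid oxidation in hepatocytes. On the log2(FPKM + 1) scale, its values were 5.68, 5.50 and 5.78 in ND mice 6, 7 and 9, 6.18, 6.26 and 6.27 in HFD mice 1, 2 and 3, and 5.67, 5.99 and 5.49 in PRF 50 mice 3, 9 and 10. All 3 HFD livers lay above all 6 others, while the ND and PRF 50 livers were intermixed. The HFD group was above the ND group by 0.59 (SE 0.11, 95% interval 0.33 to 0.84), with an unadjusted p of 0.000727 and an adjusted p of 0.0521 in limma. The PRF 50 group differed from the HFD group by -0.52 (SE 0.13, 95% interval -0.83 to -0.21, adjusted p = 0.083). Between PRF 50 and ND, the difference was 0.07 (95% interval -0.28 to 0.42, adjusted p = 0.882), and it turned to -0.01 without ND mouse 7 and -0.07 without PRF 50 mouse 9.

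PRF 50 mouse 9 had the highest Ppara value of its group. Without it, the difference between PRF 50 and HFD was -0.65 with an adjusted p of 0.0397, the only alternative of 10 that passed, and over the 10 alternatives the adjusted p ran from 0.0397 to 0.217. For HFD vs. ND, it ran from 0.0536 to 0.228, so that no alternative brought Ppara under 0.05 there.

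Pparg (chr6:115360951-115490399 on GRCm38, plus strand) encodes PPARgamma, whose longer form, gamma 2, is typical of adipocytes and is made from a start site of its own. The log2(FPKM + 1) values of Pparg were 3.56, 3.58 and 3.56 in the ND livers, 3.45, 3.83 and 3.83 in HFD mice 1, 2 and 3, and 2.60, 2.67 and 2.08 in PRF 50 mice 3, 9 and 10. The ND livers were nearly equal, HFD mouse 1 fell below them and the other HFD mice above, and every PRF 50 liver lay below every other liver. The fall from HFD to PRF 50 was 1.25 on the log2 scale (log2 fold change -1.25, SE 0.18, 95% interval -1.68 to -0.83), with an adjusted p of 0.0229 in limma. Pparg ranked 81 by p-value among the 10084 tested genes. PRF 50 was also below ND, with a log2 fold change of -1.12 (SE 0.16, 95% interval -1.49 to -0.75, adjusted p = 0.0416). HFD and ND were not distinguishable, with a difference of 0.13 (95% interval -0.15 to 0.42, adjusted p = 0.651) that was 0.26 without HFD mouse 1 and 0.07 without HFD mouse 2 or 3.

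The size of the Pparg difference was steadier than its call. Over 10 alternatives, its log2 fold change in PRF 50 vs. HFD lay between -1.41 and -1.07, and the adjusted p between 0.00511 and 0.0804, under 0.05 in 6 of the 10. The call was lost without HFD mouse 2 (adjusted p = 0.0804), HFD mouse 3 (0.0796) or PRF 50 mouse 3 (0.0556), and with no minimum level (0.0557). In PRF 50 vs. ND, the log2 fold change lay between -1.27 and -0.93, and the call held in 4 of 10 alternatives. It was lost without ND mouse 6 (adjusted p = 0.148), ND mouse 7 (0.157), ND mouse 9 (0.0687), PRF 50 mouse 3 (0.126) or PRF 50 mouse 9 (0.0551), and with no minimum level (0.121). Over all genes, the 362 calls of PRF 50 vs. HFD became 15 without HFD mouse 3, 31 without HFD mouse 2, 40 without PRF 50 mouse 3, 168 without PRF 50 mouse 10 and 215 without HFD mouse 1.

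The deposited value is 1 per gene and does not separate the start sites of Pparg. RefSeq (GRCm38.p6) places 3 promoter windows on it, each from 250 bases before to 50 bases after a start, shown here because Pparg is the only called member and its forms start from different windows. The windows lie at chr6:115360894-115361193, chr6:115362099-115362398 and chr6:115421816-115422115, all on the plus strand, and the starts are 1205 and 59717 bases apart. Capitals mark the nuclear receptor half-site AGGTCA or its reverse complement TGACCT, searched on both strands.
Pparg window 1: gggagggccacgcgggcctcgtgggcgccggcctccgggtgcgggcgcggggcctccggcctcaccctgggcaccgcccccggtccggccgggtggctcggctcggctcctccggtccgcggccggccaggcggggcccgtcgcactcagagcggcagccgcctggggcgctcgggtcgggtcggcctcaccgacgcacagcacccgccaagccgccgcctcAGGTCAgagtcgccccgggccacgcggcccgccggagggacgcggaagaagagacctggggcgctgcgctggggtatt
Pparg window 2: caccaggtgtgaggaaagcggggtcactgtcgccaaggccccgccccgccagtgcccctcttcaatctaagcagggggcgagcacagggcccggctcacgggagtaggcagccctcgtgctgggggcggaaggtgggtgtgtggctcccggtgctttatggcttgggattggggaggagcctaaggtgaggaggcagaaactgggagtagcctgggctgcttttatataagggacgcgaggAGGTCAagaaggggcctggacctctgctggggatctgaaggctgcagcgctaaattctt
Pparg window 3: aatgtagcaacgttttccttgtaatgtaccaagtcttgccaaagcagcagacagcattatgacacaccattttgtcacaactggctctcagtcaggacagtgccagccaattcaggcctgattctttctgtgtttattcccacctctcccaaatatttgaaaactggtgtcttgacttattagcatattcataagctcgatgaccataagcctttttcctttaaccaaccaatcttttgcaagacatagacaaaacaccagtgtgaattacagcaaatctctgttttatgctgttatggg
The first window has a GC content of 80.3% with 44 CpG sites, the second 62.7% with 13, and the third 40.3% with 2. In GENCODE M21, the longest coding sequence among transcripts that start inside the first or second window is 475 codons, and that of the third, for gamma 2, is 505. A half-site begins 28 bases before the first start and 9 bases before the second, and none was found in the third window.

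Promoter windows were found for 8 of the 9 members, 13 windows in all, and none for Ppargc1b. The half-site was present in 3 of the 13 windows, beside 16.3% of all 32851 windows of the same length, and a match only describes the letters. The remaining match belongs to Rxra, whose window around its downstream start (chr2:27709042-27709341, plus strand) holds 2 half-sites. PPAR and RXR bind direct repeats of the half-site with a spacer of 1 base (DR1), and this was searched as AGGNCANAGGNCA on both strands, a motif whose parts include the half-site. It was found in 0 of the 13 windows of the members and in 0.381% of all windows.

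Ppard (chr17:28232700-28301474 on GRCm38, plus strand) encodes PPARdelta, a receptor present in most tissues. Its log2(FPKM + 1) values were 1.16, 1.16 and 1.15 in the ND, 1.40, 1.26 and 1.29 in the HFD and 1.37, 1.45 and 1.50 in the PRF 50 livers. Both groups on the HFD lay above the ND livers, and they overlapped with each other. The difference from ND was 0.28 in PRF 50 (95% interval 0.03 to 0.53, unadjusted p = 0.0325, adjusted p = 0.344) and 0.16 in HFD (95% interval -0.10 to 0.41, adjusted p = 0.549). PRF 50 differed from HFD by 0.12 (95% interval -0.11 to 0.36, adjusted p = 0.549). Over 10 alternatives these differences ran from 0.21 to 0.45, 0.12 to 0.26 and 0.06 to 0.19. At 1.23 to 1.71 FPKM in the group means, Ppard was close to the minimum level, where the log2(FPKM + 1) scale understates differences.

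As a sum over Ppara, Pparg and Ppard, PPAR transcripts reached 61.5 ± 4.8 FPKM in ND, 88.1 ± 4.3 FPKM in HFD and 58.5 ± 10 FPKM in PRF 50 (SD, n = 3). Pparg made up 17.3%, 19.5% and 16.4% of this sum in the ND livers, 11.9%, 14.6% and 14.5% in the HFD livers, and 8.92%, 7.71% and 6.57% in the PRF 50 livers. No share of 1 group overlapped with those of another, and the order was ND, HFD, PRF 50 from high to low. The mean share was lower by 5.96 percentage points in PRF 50 than in HFD (difference -5.96, two-sided exact permutation test, p = 0.1) and by 4.02 in HFD than in ND (difference -4.02, exact p = 0.1). With 3 mice against 3, 0.1 is the smallest p this test can give. Between ND and HFD the Pparg level itself was not distinguishable, and the sum was higher mainly through Ppara.

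**Figure D2:**
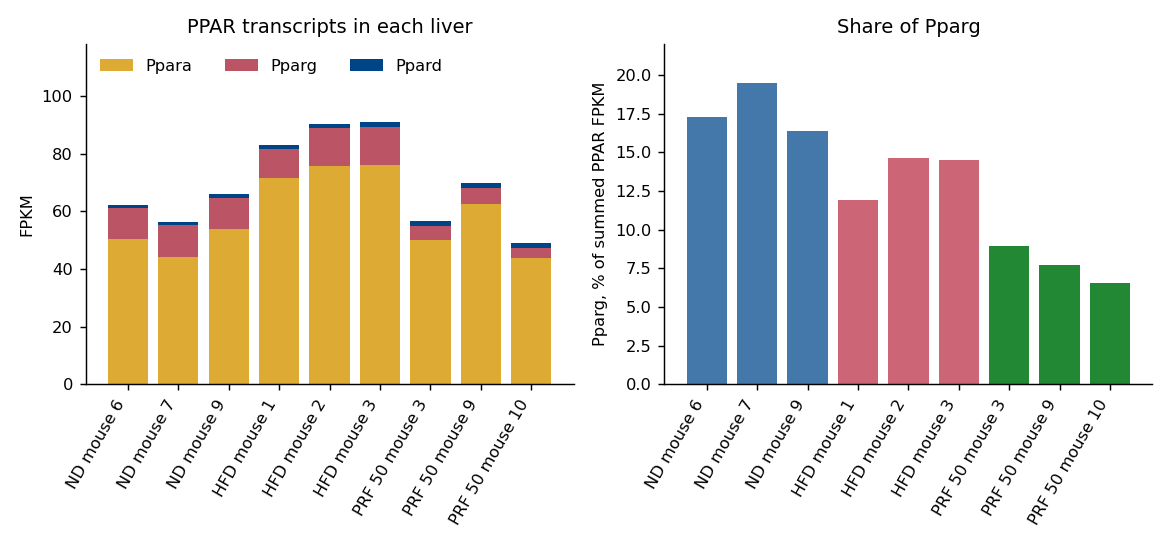
Left, FPKM of Ppara, Pparg and Ppard stacked for each liver. Right, Pparg as a percentage of that sum in the same livers, in ND (blue), HFD (red) and PRF 50 (green). The sum is highest in the HFD livers, and the Pparg share is between 16.4% and 19.5% in ND, 11.9% and 14.6% in HFD and 6.57% and 8.92% in PRF 50.

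Rxra (chr2:27676440-27762957 on GRCm38, plus strand) encodes RXRalpha, the predominant RXR of the liver. Its log2(FPKM + 1) values were 6.44, 6.48 and 6.41 in the ND, 6.47, 6.40 and 6.45 in the HFD and 6.61, 6.72 and 6.53 in the PRF 50 livers. The 3 PRF 50 livers lay above the other 6 by a narrow margin, and ND and HFD overlapped. The log2 fold change was 0.18 in PRF 50 vs. HFD (95% interval -0.03 to 0.38, adjusted p = 0.321) and 0.17 in PRF 50 vs. ND (95% interval -0.07 to 0.42, adjusted p = 0.527). For HFD vs. ND, the 95% interval of the difference ran from -0.22 to 0.22 (adjusted p = 0.992), and its sign changed with the scaling. Quantile normalization gave 0.31 in PRF 50 vs. HFD and 0.34 in PRF 50 vs. ND, neither of them called.

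Rxrb (chr17:34031812-34038399 on GRCm38, plus strand) encodes RXRbeta, the broadly expressed relative of RXRalpha. Its log2(FPKM + 1) values were 3.80, 3.61 and 3.54 in the ND, 3.40, 3.45 and 3.39 in the HFD and 3.39, 3.49 and 3.46 in the PRF 50 livers. The ND livers were above all 6 livers of mice on the HFD, with or without PRF. The difference was -0.24 in HFD vs. ND (95% interval -0.48 to 0.00, unadjusted p = 0.0501, adjusted p = 0.332) and -0.20 in PRF 50 vs. ND (95% interval -0.45 to 0.04, adjusted p = 0.475). Against HFD, PRF 50 differed by 0.03 (95% interval -0.15 to 0.21, adjusted p = 0.854). Rxrb made up 11.9% ± 1 of the summed FPKM of Rxra and Rxrb in ND, 10.1% ± 0.5 in HFD and 9.24% ± 0.55 in PRF 50 (SD, n = 3). The share differed by -1.75 percentage points in HFD vs. ND (two-sided exact permutation test, p = 0.1) and by -0.859 in PRF 50 vs. HFD (exact p = 0.3). Without ND mouse 6 the former was -1.15, and without HFD mouse 2 the latter was -0.569. With quantile normalization the latter was -1.44 (exact permutation test, p = 0.1). The remaining RXR gene, Rxrg, was named after its values had been seen and had means of 3.6, 3.86 and 2.79 FPKM in ND, HFD and PRF 50, with overlapping values.

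**Figure D3:**
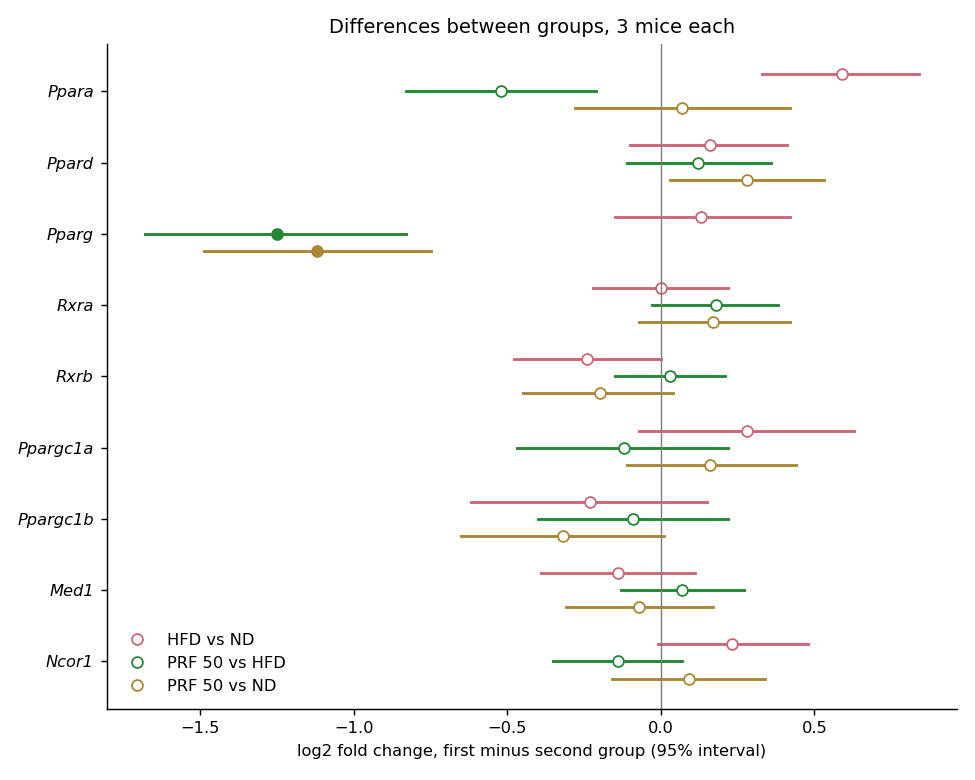
Log2 fold change of each gene with its 95% interval from limma for HFD vs. ND, PRF 50 vs. HFD and PRF 50 vs. ND (n = 3 mice per group). Filled points have an adjusted p under 0.05 and open points do not. Both filled points belong to Pparg, at -1.25 and -1.12, and the intervals of Ppara in HFD vs. ND and PRF 50 vs. HFD and of Ppard in PRF 50 vs. ND also leave out 0.

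Ppargc1a (chr5:51454250-51567726 on GRCm38, minus strand) encodes PGC-1alpha, a coactivator of mitochondrial and gluconeogenic genes that rises in fasting liver. On the log2(FPKM + 1) scale, the values were 1.05, 1.19 and 1.05 in the ND, 1.67, 1.23 and 1.23 in the HFD and 1.16, 1.30 and 1.32 in the PRF 50 livers. HFD mouse 1 stood apart at 1.67, and the other HFD mice were within the range of PRF 50. The difference was 0.28 in HFD vs. ND (95% interval -0.07 to 0.63, adjusted p = 0.444), and without HFD mouse 1 it was 0.14. In PRF 50 vs. HFD it was -0.12 (95% interval -0.47 to 0.22, adjusted p = 0.703) and turned to 0.03 without HFD mouse 1. In PRF 50 vs. ND it was 0.16 (95% interval -0.11 to 0.44, adjusted p = 0.594), with 0.07 to 0.27 over 10 alternatives.

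Ppargc1b encodes PGC-1beta, the relative of PGC-1alpha that also coactivates lipogenic factors. On the log2(FPKM + 1) scale, the values were 1.73, 1.27 and 1.49 in the ND, 1.51, 1.14 and 1.14 in the HFD and 1.19, 1.13 and 1.21 in the PRF 50 livers. HFD mouse 1 was again the highest of its group, and the ND livers lay above all PRF 50 livers. The difference was -0.32 in PRF 50 vs. ND (95% interval -0.65 to 0.01, adjusted p = 0.411), -0.23 in HFD vs. ND (95% interval -0.62 to 0.15, adjusted p = 0.558) and -0.09 in PRF 50 vs. HFD (95% interval -0.40 to 0.22, adjusted p = 0.772). The last of these turned to 0.04 without HFD mouse 1, and was -0.15 without HFD mouse 2 or 3. In HFD vs. ND, the difference was -0.12 without ND mouse 6, -0.35 without ND mouse 7 and -0.36 without HFD mouse 1, and in PRF 50 vs. ND it was -0.20 without ND mouse 6. Ppargc1a made up 31.7%, 47.7% and 37% of the summed FPKM of both genes in the ND livers, 54.2%, 53% and 52.9% in the HFD livers and 48.9%, 55.2% and 53.3% in the PRF 50 livers. All livers on the HFD had a higher share than the ND livers, by 14.5 percentage points in HFD vs. ND (two-sided exact permutation test, p = 0.1). PRF 50 and HFD overlapped, with a difference of -0.889 (exact p = 0.9) that became 0.899 without PRF 50 mouse 3, -2.26 without PRF 50 mouse 9 and -0.465 without HFD mouse 1. Both PGC-1 genes were below 3 FPKM in every liver, so these shares rest on low values.

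Med1 (chr11:98152154-98193293 on GRCm38, minus strand) encodes the Mediator subunit that binds PPARs and other nuclear receptors. On the log2(FPKM + 1) scale, the values were 2.71, 2.75 and 2.53 in the ND, 2.56, 2.41 and 2.59 in the HFD and 2.57, 2.59 and 2.62 in the PRF 50 livers. The groups overlapped in every comparison. The differences were -0.14 in HFD vs. ND (95% interval -0.39 to 0.11), 0.07 in PRF 50 vs. HFD (95% interval -0.13 to 0.27) and -0.07 in PRF 50 vs. ND (95% interval -0.31 to 0.17), with adjusted p-values of 0.585, 0.699 and 0.804. Over 10 alternatives they ran from -0.21 to -0.09, 0.02 to 0.11 and -0.14 to -0.03.

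Ncor1 (chr11:62316426-62458541 on GRCm38, minus strand) encodes a corepressor that brings histone deacetylase 3 to unliganded receptors. On the log2(FPKM + 1) scale, the values were 3.38, 3.51 and 3.62 in the ND, 3.64, 3.73 and 3.83 in the HFD and 3.49, 3.66 and 3.62 in the PRF 50 livers. The HFD livers were above the ND livers, with 0.02 between the nearest mice, and PRF 50 overlapped with both. The difference was 0.23 in HFD vs. ND (95% interval -0.01 to 0.48, adjusted p = 0.36), -0.14 in PRF 50 vs. HFD (95% interval -0.35 to 0.07, adjusted p = 0.443) and 0.09 in PRF 50 vs. ND (95% interval -0.16 to 0.34, adjusted p = 0.752). Over 10 alternatives these ran from 0.17 to 0.29, -0.19 to -0.09 and 0.03 to 0.15. The genes Ttc19 and Pigl overlap Ncor1 on the opposite strand, and whether the counting used strand is not given in the sources used here.

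The genes whose profile over the 9 livers was most like that of a member were found by the root-mean-square difference of log2 values, each gene centred on its own mean, among 10048 genes that averaged 1 FPKM or more. For Pparg, these were Fitm1, a fat storage-inducing transmembrane protein gene, at 0.133 and Ehhadh, a peroxisomal oxidation enzyme, at 0.213. The spread of Pparg around its own mean was 0.590. Fitm1 had log2(FPKM + 1) values of 5.79, 5.48 and 5.64 in the ND, 5.39, 5.87 and 6.13 in the HFD and 4.67, 4.93 and 4.23 in the PRF 50 livers. Like Pparg, Fitm1 was lowest within the HFD group in mouse 1 and lowest of all livers in PRF 50 mouse 10. The genes of this search were picked over these same values, so such likeness is not a separate observation. For Ppara, the most alike genes were Pcx, the pyruvate carboxylase gene, at 0.066 and Pank1, a pantothenate kinase gene, at 0.115, beside a spread of 0.296. Pcx had values of 6.60, 6.48 and 6.65 in the ND, 7.08, 7.24 and 7.11 in the HFD and 6.61, 6.76 and 6.37 in the PRF 50 livers, so that the HFD livers again lay above all others.

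The other members varied little, with a spread of 0.093 to 0.201, and their nearest genes differed from them by 0.041 to 0.090. These were Slc31a1 and Hnrnpr for Ppard, Myo18a and Kalrn for Rxra, and Pa2g4 and Mapk8ip3 for Rxrb. For Ppargc1a they were Mettl8 and Kdm2b, and for Ppargc1b Ndufb6 and Eif3h. For Med1 they were Brd3 and Fbxl14, and for Ncor1 Myo5b and Ick.

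The target genes of the receptors were set beside them with lists drawn up from general knowledge, but with earlier results of these data known. Counts over these lists are therefore descriptions and not independent support. Of 30 PPARalpha target genes, all 30 were tested in PRF 50 vs. HFD. Of these, 18 were called lower and 0 higher, beside 2.16% called lower over all tested genes. Pdk4 and Fgf21 reached the minimum level only through the HFD group and are not among the called. They are still in the 30 tested genes and in the median log2 fold change, which was -0.81, beside -0.02 over all tested genes. The median over this list is therefore a description only. Acot2, a mitochondrial acyl-CoA thioesterase gene, had log2(FPKM + 1) values of 3.22, 3.66 and 3.45 in the HFD and 0.97, 1.67 and 1.22 in the PRF 50 livers. Its fall of 2.16 on the log2 scale (SE 0.19, adjusted p = 0.00711 in limma) was called in 10 of 10 alternatives. The fall of Pex11a, which takes part in the division of peroxisomes, was 1.77 (SE 0.19, adjusted p = 0.0133), also called in 10 of 10. Acaa1b and Acot1 were likewise among the 4 targets with the smallest p, with calls in 9 and 8 of 10. Acaa1b lost its call without HFD mouse 3, and Acot1 without HFD mouse 2 or 3. Without HFD mouse 2, HFD mouse 3, PRF 50 mouse 3 or PRF 50 mouse 10, the number of called targets was 3, 2, 5 and 10, and with no minimum level it was 11.

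In HFD vs. ND, 5 of the 30 PPARalpha targets were called higher (Vnn1, Cyp4a14, Acot2, Pex11a and Cpt1a), beside 0.702% of all tested genes, and 0 lower. The median log2 fold change was 0.52, beside -0.01 over all tested genes. It includes Pdk4 (1.15) and Fgf21 (1.19), which were not called and did not reach the minimum level in PRF 50 vs. ND. Vnn1, the pantetheinase gene, had values of 4.92, 4.89 and 4.87 in the ND and 5.97, 6.50 and 6.41 in the HFD livers (difference 1.40, SE 0.15, adjusted p = 0.00731), called in 10 of 10 alternatives. Acot2 was called in 5 of 10 and Pex11a in 3 of 10. Over the alternatives the count of called targets lay between 2 and 7, with 3 without ND mouse 6 and 2 without ND mouse 7, ND mouse 9, HFD mouse 2 or HFD mouse 3. Against ND, 28 were tested in PRF 50, and Ehhadh and Acaa1b were called lower, beside 0.298% of all tested genes, with a median of -0.29 beside -0.03 over all tested genes. Without ND mouse 6, 7 or 9 or PRF 50 mouse 3 or 10, neither was called, and 4 targets were called without PRF 50 mouse 9.

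Among 24 promoter windows of the PPARalpha targets, the DR1 motif was found in 1, that of Fabp1, the fatty-acid binding protein gene of hepatocytes, beside 0.381% of all windows. Fabp1 is shown for this match and was chosen after its values were seen. The window lies at chr6:71199629-71199928 on the plus strand (RefSeq, GRCm38.p6), and capitals mark only this motif, which reads on the opposite strand and begins 67 bases before the start.
Fabp1 window: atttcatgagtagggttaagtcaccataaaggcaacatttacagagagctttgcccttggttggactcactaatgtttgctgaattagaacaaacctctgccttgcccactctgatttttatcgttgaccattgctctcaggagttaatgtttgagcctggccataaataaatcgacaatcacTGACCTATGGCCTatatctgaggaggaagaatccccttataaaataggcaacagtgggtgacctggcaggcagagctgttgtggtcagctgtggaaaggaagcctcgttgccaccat
The log2(FPKM + 1) values of Fabp1 were 14.11, 13.64 and 13.85 in the ND, 14.13, 14.25 and 13.84 in the HFD and 13.12, 13.05 and 13.37 in the PRF 50 livers. All PRF 50 livers lay below all others, by -0.90 against HFD (95% interval -1.40 to -0.39, adjusted p = 0.0727) and by -0.69 against ND (95% interval -1.20 to -0.18, adjusted p = 0.256).

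Of 9 genes linked to PPARgamma in fatty liver, 8 were tested in PRF 50 vs. HFD, but Cidec, Plin4 and Mogat1 reached the minimum level only through the HFD group, so that no count or median over this list is used. Cd36, the fatty-acid translocase gene, and Fitm1 were above 1 FPKM in every liver. Cd36 had log2(FPKM + 1) values of 4.42, 4.51 and 4.47 in the ND, 5.08, 6.34 and 6.55 in HFD mice 1, 2 and 3 and 3.61, 3.78 and 3.66 in the PRF 50 livers. As for Pparg, HFD mouse 1 was the lowest of its group, and every PRF 50 liver lay below every other liver. Cd36 fell by 2.31 on the log2 scale in PRF 50 vs. HFD (SE 0.35, adjusted p = 0.0249 in limma, with 0.000457 to 0.0845 over 10 alternatives). This call was lost without HFD mouse 2 or 3 or PRF 50 mouse 3 or 10 and with no minimum level. The fall of Fitm1 was 1.18 (SE 0.23, adjusted p = 0.0414, with 0.0213 to 0.132 over 10 alternatives), and its call was lost without HFD mouse 2 or 3 or PRF 50 mouse 3 or 10, with no minimum level and with quantile normalization. In PRF 50 vs. ND, Cd36 fell by 0.78 (SE 0.10, adjusted p = 0.0229), called in 3 of 10 alternatives. This call was lost without ND mouse 6 or 7 or any of PRF 50 mice 3, 9 and 10, with no minimum level and with all 9 mice in 1 fit, where the adjusted p was highest, at 0.279.

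Not all genes linked to PPARgamma were called lower in PRF 50. Lpl, the lipoprotein lipase gene, was above HFD (0.67), Fabp4 was nearly level with it (-0.04) and Fitm2 was below it (-0.76). None of these was called. Cidec, which enlarges lipid droplets, had log2(FPKM + 1) values of 1.85, 1.42 and 1.90 in the ND, 1.99, 3.74 and 3.79 in the HFD and 0.08, 0.90 and 0.36 in the PRF 50 livers. Plin4, a lipid droplet coat gene, had values of 1.07, 0.92 and 0.78 in the ND, 1.85, 1.93 and 2.18 in the HFD and 0.61, 0.71 and 0.13 in the PRF 50 livers. Cidec was not called in HFD vs. ND (difference 1.45, adjusted p = 0.19 in limma). In PRF 50 vs. HFD, both genes passed the minimum only through the HFD group, as did Plin4 in HFD vs. ND. These comparisons are therefore given without a test.

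Adipocytes express several of these genes, Pparg included. Of 5 adipocyte markers, Plin1 and Lep were listed at 0 in all 9 livers, and the most abundant was Cfd. Their summed FPKM was 0.654, 1.6 and 1.58 in the ND, 0.583, 6.56 and 13.5 in HFD mice 1, 2 and 3 and 0.211, 0.609 and 0 in the PRF 50 livers. In HFD mice 2 and 3, where the sum was highest, it came almost wholly from Cfd, and Adipoq, on the log2 scale, was 0.35 and 0.14 in these mice and 0 in all other livers. The part of the adipocyte markers in the Pparg result was not tested. Macrophages also express Pparg. Of 9 Kupffer cell and macrophage markers, 7 were called higher in PRF 50 vs. HFD, beside 1.43% of all tested genes, in the opposite direction to Pparg. In limma, 0 were called in HFD vs. ND and 0 in PRF 50 vs. ND, with 0 and 9 at an unadjusted p under 0.05, beside 15.1% and 12.5% of all tested genes. All 9 were above 0 in every liver, the most abundant was Cd5l, and their summed FPKM was 60.4, 115 and 165 in the ND, 80.1, 138 and 141 in the HFD and 474, 249 and 323 in the PRF 50 livers. Without HFD mouse 2, HFD mouse 3, PRF 50 mouse 3 or PRF 50 mouse 10, the number called in PRF 50 vs. HFD was 1, 0, 0 and 2, and it was 4 with all 9 mice in 1 fit and 2 with no minimum level. The part of these markers in the results was not tested.

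Beside 3.59% of all tested genes, calls in PRF 50 vs. HFD were counted among further partners and coregulators. The list of RXR partners also holds Rxrg, and of its 14 genes 11 were tested, and 2 were called lower, Nr1i3, which encodes the constitutive androstane receptor, by 0.93 on the log2 scale (log2 fold change -0.93, SE 0.17, adjusted p = 0.0336), and Nr1i2, which encodes the pregnane X receptor, by 0.67 (log2 fold change -0.67, SE 0.12, adjusted p = 0.0369). Over the alternatives, Nr1i3 was called in 4 of 10 and Nr1i2 in 3 of 10, and neither was called without HFD mouse 1, HFD mouse 3, PRF 50 mouse 3 or PRF 50 mouse 10. Nr1i2 was also not called without HFD mouse 2 or PRF 50 mouse 9, Nr1i3 not with quantile normalization, and neither with no minimum level. In limma, 0 of 16 coactivators, 0 of 10 tested corepressors and 0 of 30 tested Mediator subunits were called in PRF 50 vs. HFD, with 2, 2 and 0 at an unadjusted p under 0.05, beside 20.2% of all tested genes, and medians of -0.03, 0.02 and 0.00. In HFD vs. ND, limma called 0 of the RXR partners, coactivators, corepressors and Mediator subunits, with 3, 3, 1 and 4 of 11, 15, 10 and 31 tested genes at an unadjusted p under 0.05, beside 15.1% of all. Hdac3, the deacetylase that NCoR1 binds, had the smallest p of the corepressors in PRF 50 vs. HFD, with a difference of -0.32 (95% interval -0.51 to -0.13, adjusted p = 0.0853). Of 13 genes linked to PGC-1, 1 was called in PRF 50 vs. HFD, G6pc, the glucose-6-phosphatase gene of gluconeogenesis, with a log2 fold change of -2.19 (SE 0.37, adjusted p = 0.0321). G6pc lost its call without any of HFD mice 1, 2 and 3 or without PRF 50 mouse 3 or 10, and with no minimum level, and the list's median was -0.16.

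**Figure D4:**
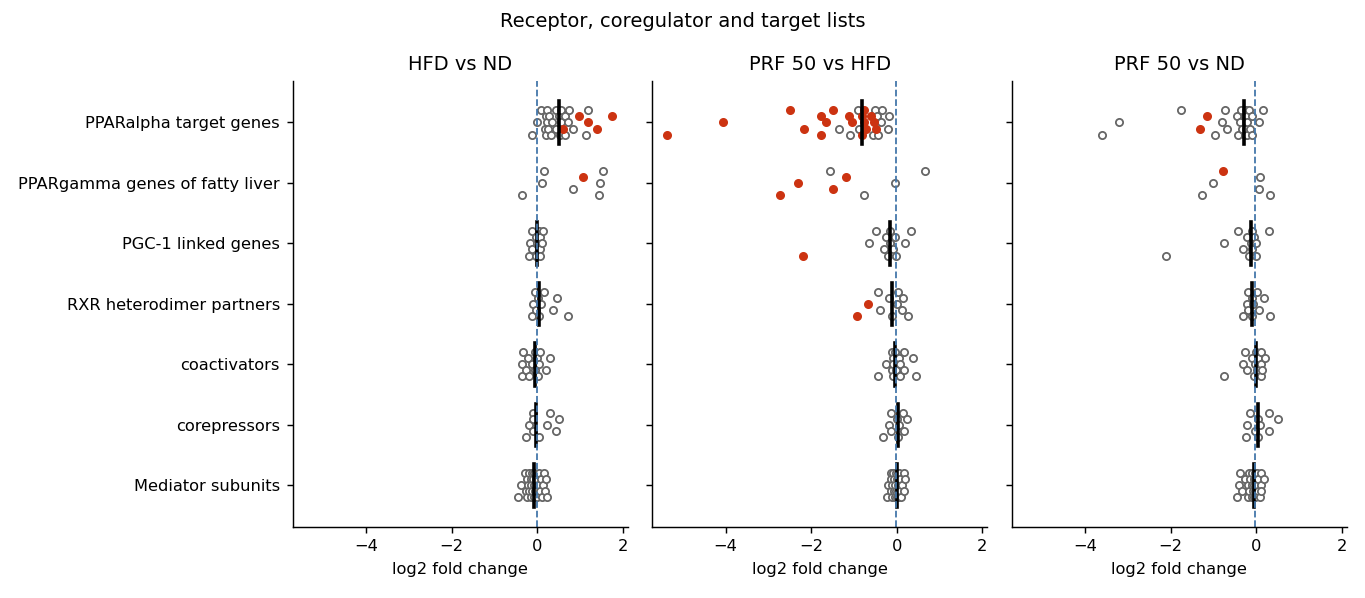
Log2 fold change of every tested gene of 7 lists in the 3 comparisons, filled red where the adjusted p was under 0.05 and open where it was not, with a black bar for the list's median (not drawn for the PPARgamma list) and a dashed blue line for the median of all tested genes. Cidec in PRF 50 vs. HFD, and Plin4 there and in HFD vs. ND, reached the minimum level only through the HFD group. Their adjusted p was under 0.05, but they are not used as calls. PPARalpha targets have medians of 0.52, -0.81 and -0.29 in HFD vs. ND, PRF 50 vs. HFD and PRF 50 vs. ND, beside -0.01, -0.02 and -0.03 over all tested genes. Pdk4 and Fgf21 are in these medians except in PRF 50 vs. ND, where they were below the minimum level.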

How the data were processed

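Liver RNA of 9 mice was sequenced. Reads were aligned to mm10 by the authors with TopHat (both from the submitters' processing notes), FPKM came from Cufflinks, and the authors state a geometric normalization in edgeR. The authors deposited 1 log2 value per gene symbol and mouse, read here as log2(FPKM + 1) because the lowest value was 0. Annotation and tool versions are not given in the sources used here.

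Groups were taken from the labels. Differences were fitted with limma 3.58.1 in R 4.3.3 (lmFit, eBayes with a trend, no covariates) on the 6 mice compared, for genes averaging 1 FPKM or more. P-values were adjusted over all tested genes (Benjamini-Hochberg), and an adjusted p under 0.05 was a call. Steps were tested on simulated data. Shares were compared with exact permutation tests (scipy 1.17.1, Python 3.11.15). Alternatives were all 9 mice in 1 fit, a pseudocount of 0.1, no minimum level, quantile normalization and leaving out each mouse. When a mouse is left out, its group keeps 2 mice.

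Genes named are the members, up to 4 called genes per list and comparison (if fewer than 2, the 2 with the smallest p), the 2 genes most like each member, and markers. Some genes, called or not, were named beyond this rule after their values were seen, and some genes that the rule picked are not named. The members and lists were chosen with earlier results of these data known. Positions are from GENCODE M21 (GRCm38).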

Additional observations from a re-analysis of the deposited data

How the results depend on the processing

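For the log2 fold changes of the 9 members in 3 comparisons, 10 alternatives each gave 270 values, of which 252 kept their direction and side of the threshold. Of the rest, 10 were Pparg calls that were lost and 1 was the Ppara call in PRF 50 vs. HFD without PRF 50 mouse 9. The other 7 changed sign, all close to 0. Rxra in HFD vs. ND turned to 0.04 with quantile normalization and ran from -0.02 to 0.02 without single mice. Ppara in PRF 50 vs. ND ran from -0.07 to 0.18, Ppargc1a in PRF 50 vs. HFD from -0.19 to 0.03 and Ppargc1b in PRF 50 vs. HFD from -0.15 to 0.04 without single mice. The Ppargc1a share in PRF 50 vs. HFD ran from -2.26 to 0.899 percentage points.

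With no minimum level, 0 members were called in PRF 50 vs. HFD and in PRF 50 vs. ND, and the calls over all genes were 126 in PRF 50 vs. HFD (362 with the minimum), 37 in HFD vs. ND (133) and 11 in PRF 50 vs. ND (46), with more genes in the adjustment. With all 9 mice in 1 fit, 107 genes were called in PRF 50 vs. ND. Without single mice, the members called ran from 0 to 2 in PRF 50 vs. HFD and from 0 to 1 in PRF 50 vs. ND, and the calls over all genes from 15 to 242, 35 to 140 and 4 to 71 in PRF 50 vs. HFD, HFD vs. ND and PRF 50 vs. ND, with fewer mice in each fit. No paired analysis was possible because the groups were made of separate mice, and an equal mouse number in different groups is not a pair. The depth of each library is unknown, and values near 1 FPKM (Ppard, Ppargc1a, Ppargc1b) are the least certain.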

Other observations

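HFD mouse 1 differed from the other HFD mice in several members. It had the lowest Pparg value of its group on the log2 scale (3.45, beside 3.83 in both others) and the highest Ppargc1a value (1.67, beside 1.23 in both others) and Ppargc1b value (1.51, beside 1.14 in both others). Cd36, the fatty-acid translocase, was 5.08 in this mouse and 6.34 and 6.55 in HFD mice 2 and 3. Without HFD mouse 1, the log2 fold change of Cd36 in HFD vs. ND was 1.98 with an adjusted p of 0.00173 in limma, beside 1.53 and 0.0922 with it, and over 10 alternatives the adjusted p ran from 0.00173 to 0.273, under 0.05 in 2 of them, the other with all 9 mice in 1 fit. Pparg in HFD vs. ND was 0.26 without this mouse, with an adjusted p of 0.292, beside a range of 0.292 to 0.918. Endothelial and macrophage markers were also low in HFD mouse 1, but not the markers of every other cell type. Its summed FPKM of stellate cell markers was 103, beside 125 and 96.6 in HFD mice 2 and 3. For cholangiocyte markers it was 27.4, beside 36.9 and 25.6, and for lymphocyte markers 1.38, beside 1.34 and 1.65. The summed FPKM of 6 endothelial markers, all above 0 in every liver and led by Clec4g, was 16.9 in this mouse, 40.5 and 56.4 in HFD mice 2 and 3, 43.8, 58.8 and 73.9 in the ND and 43, 43.4 and 69.4 in the PRF 50 livers, and the macrophage sum was 80.1 beside 138 and 141. The relative depth of HFD mouse 1 was the lowest of its group, and its part in these values was not tested.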
